A study of Mus musculus with 57 samples.

Results

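The nuclear genes that encode the subunits of the mitochondrial respiratory chain and of ATP synthase were followed in mouse distal colon and in colon tumors. A gene was a member when its symbol began with Nduf, a letter for a subunit class and a digit, or was Sdha, Sdhb, Sdhc or Sdhd. Symbols that began with Uqcr, with Cox and the code of a nuclear subunit, or with Atp5 were members too. Only probe sets with 1 gene symbol were used, with the brightest probe set standing for a gene that had several. This gave 80 members among 22180 measured genes, with 31 in complex I, 4 in complex II, 8 in complex III, 19 in complex IV and 18 in complex V. The counts include the pseudogene symbols Uqcrh-ps1 in complex III and Atp5c1-ps in complex V. Ndufa4 and Ndufa4l2, whose names recall complex I, were counted in complex IV, where the Ndufa4 protein is now placed. The rule reads gene names and no measured value, and how the family came to be picked is given with the processing.

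The samples were 57 arrays, each hybridised with total RNA of distal colon, from C57BL/6 mice aged 18 to 24 weeks, in 6 groups. Untreated colon was taken from 10 INSRfl/fl mice, called fl/fl here, and from 10 villin-CRE-INSR-/- mice, called knockout here. Colon after AOM+DSS came from 10 fl/fl and 10 knockout mice, and tumors after AOM+DSS numbered 8 from fl/fl and 9 from knockout mice. Azoxymethane (AOM), a colon carcinogen, was injected at 7.4 mg/kg, a single course of the colitis-inducing agent dextran sulfate sodium (DSS, 3%) followed in week 2 for 7 days, and tissue was taken in week 5. Littermates served as the fl/fl group, and the treated mice were females per the labels' protocol. In the knockout the insulin receptor gene Insr is deleted by Cre recombinase under the villin promoter, which is active in the intestinal epithelium, so muscle, stromal and immune cells of the same pieces of colon keep the gene. The labels do not tie a tumor to a colon sample of the same mouse, nor say whether the colon of treated mice was free of tumor.

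The respiratory chain passes electrons from NADH (complex I) and succinate (complex II) through ubiquinone to complex III, through cytochrome c to complex IV, and from there to oxygen, and complex V uses the resulting proton gradient to make ATP. Each complex except II mixes nuclear-encoded subunits with subunits encoded by mitochondrial DNA. Mature colonocytes are known for a high oxidative metabolism fed by butyrate from the gut bacteria.

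The deposited values are log2 expression, so a difference of -1 is a halving, and values compare 1 gene between samples, not genes with each other. The medians of the arrays spanned 5.92 to 6.04, and arrays correlated with their own group at 0.982 (untreated knockout replicate 2) to 0.992 on average. Insr, the targeted gene, was lower in the knockout in all 3 conditions, with differences of -0.94 in untreated colon, -0.84 after AOM+DSS and -0.65 in tumors (limma adjusted p = 6.71e-09, 2.32e-07 and 0.00234). The sources used here do not say which exons of Insr the probe set reads. Its genotype ranges did not touch in untreated colon (8.70 to 9.16 against 7.74 to 8.29) or after AOM+DSS, and overlapped in tumors (7.70 to 8.50 in fl/fl against 7.17 to 8.35 in knockout). Comparisons below come from a single limma fit over all 57 arrays and 22180 genes, with Benjamini-Hochberg adjustment and a threshold of 0.05, and errors of differences are standard errors (SE). The groups are compared in bulk tissue, in which fewer cells of a type and less RNA per cell cannot be told apart.

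Respiratory chain transcripts were lower after AOM+DSS than in untreated colon, and lowest in tumors. The mean over the 80 members was 9.23 ± 0.049 (SD, n = 10) in untreated fl/fl colon, 9.11 ± 0.11 (n = 10) after AOM+DSS and 8.88 ± 0.11 (n = 8) in fl/fl tumors. In the knockout it was 9.20 ± 0.058 (n = 10), 8.98 ± 0.076 (n = 10) and 8.88 ± 0.075 (n = 9). The untreated arrays and the tumors did not overlap on this mean in either genotype, with 9.17 to 9.31 against 8.75 to 9.07 in fl/fl and 9.12 to 9.28 against 8.81 to 9.04 in knockout. The colon after AOM+DSS, at 8.97 to 9.26 in fl/fl, overlapped both the untreated colon and the tumors. In knockout, at 8.88 to 9.10, it overlapped the tumors and lay below all untreated colon.

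**Figure D1:**
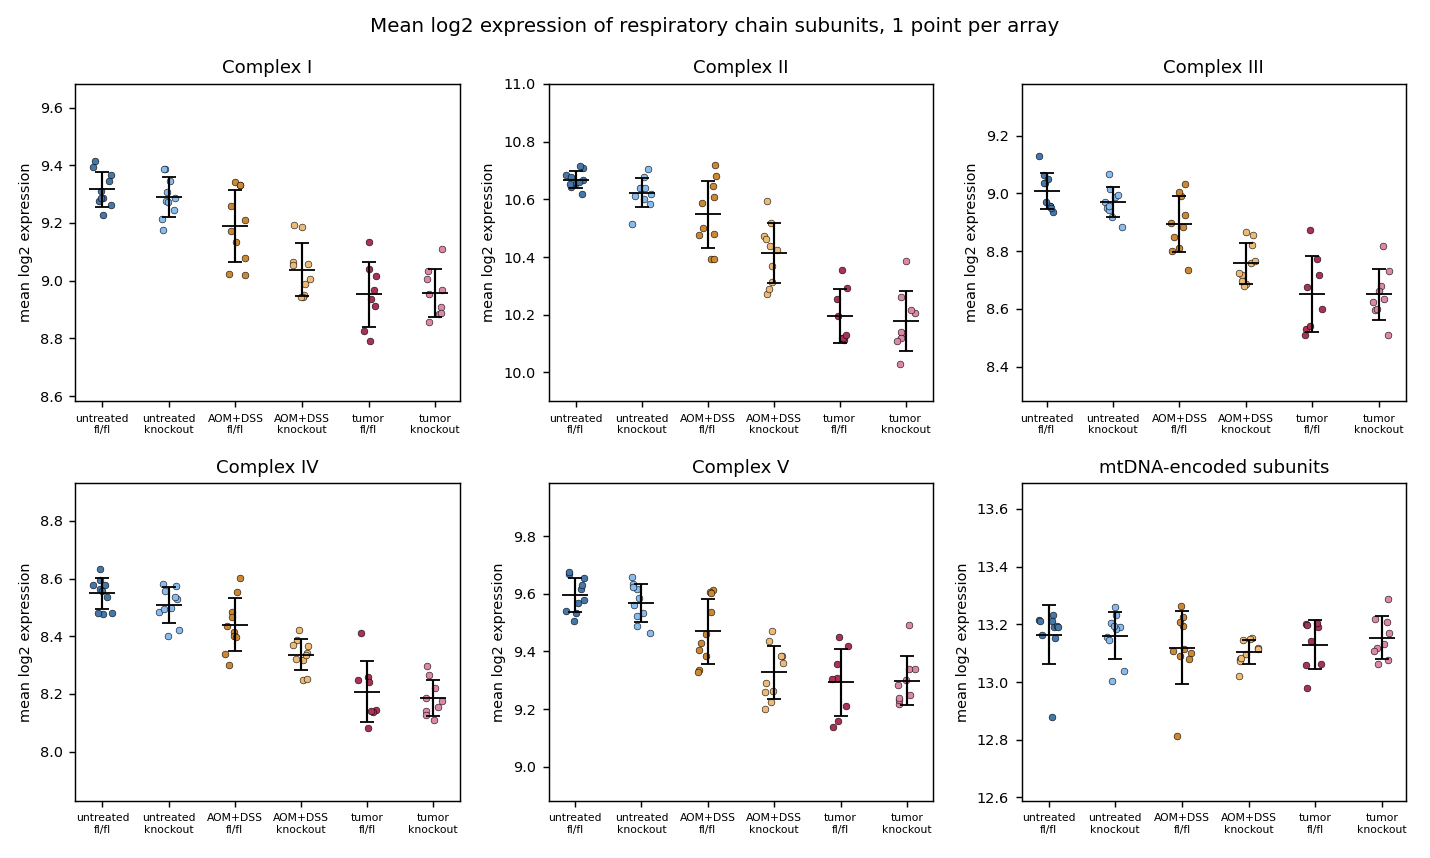
Mean log2 expression of the members of complexes I to V and of the mtDNA-encoded subunits (vertical axes, each with its own range) in the 6 groups (horizontal axes), with 1 point per array and bars for the mean and SD. In complexes I to V the tumors sit lowest and the untreated colon highest, with the complex II mean at 10.67 ± 0.029 in untreated fl/fl colon and 10.20 ± 0.094 in fl/fl tumors, while the mtDNA-encoded mean stays between 13.10 and 13.16 in all 6 groups.

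Set against untreated colon, 63 members were lower in fl/fl tumors and 63 in knockout tumors (78.8% of members in each), beside 22.5% and 23.7% of all genes. Only 2 members were higher in each genotype (2.5%), Ndufa4 and Cox6b2 in fl/fl and Ndufa4 and Ndufc2 in knockout, where 22.9% and 23.6% of all genes were. The median change over the members was -0.34 in both genotypes, against -0.034 and -0.035 over all genes. For 31 members in fl/fl and 25 in knockout, every tumor lay below every untreated colon, which held for 8.26% and 7.95% of all genes.

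Part of the fall was seen in the colon after AOM+DSS, in fl/fl to a degree that depended on scaling. In fl/fl colon 23 members were lower and 1 higher than in untreated colon (28.8% and 1.25%), with 10.5% of all genes lower and 12.2% higher. The fl/fl count depended on scaling, since with all arrays shifted to 1 median 10 members were lower and 2 higher (Ndufa4l2 and Ndufc2), and the median over members moved from -0.12 to -0.079. In knockout colon 60 members were lower and 1 higher (75% and 1.25%), against 14.2% and 16% of all genes, with a member median of -0.24. Without untreated knockout replicate 2, 54 members passed there in place of 61. Whether the genotypes differed in this response was tested directly and is given with the genotype comparisons.

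Tumors were lower again than the colon after AOM+DSS. In fl/fl 48 members were lower and 2 higher (60% and 2.5%), beside 20.2% and 21% of all genes, with a member median of -0.24. In knockout 31 were lower and 1 higher (38.8% and 1.25%), beside 21.4% and 21.5%, with a member median of -0.096. These comparisons share groups (a tumor group or a colon group enters several of them), so their counts are not independent of each other.

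All 5 complexes shared the fall from untreated colon to tumor. Between untreated colon and tumors the fl/fl medians were -0.34 for complex I, -0.46 for II, -0.41 for III, -0.34 for IV and -0.28 for V. In knockout they were -0.36, -0.43, -0.34, -0.33 and -0.25 in the same order. In knockout colon complex V had its fall after AOM+DSS (median -0.24) and little between that colon and tumors (-0.030), while complex II was at -0.18 and -0.25. Without the tissue isoforms complex IV had a median of -0.45 in fl/fl tumors against untreated colon. These medians describe the complexes, and no difference between complexes was tested.

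**Figure D2:**
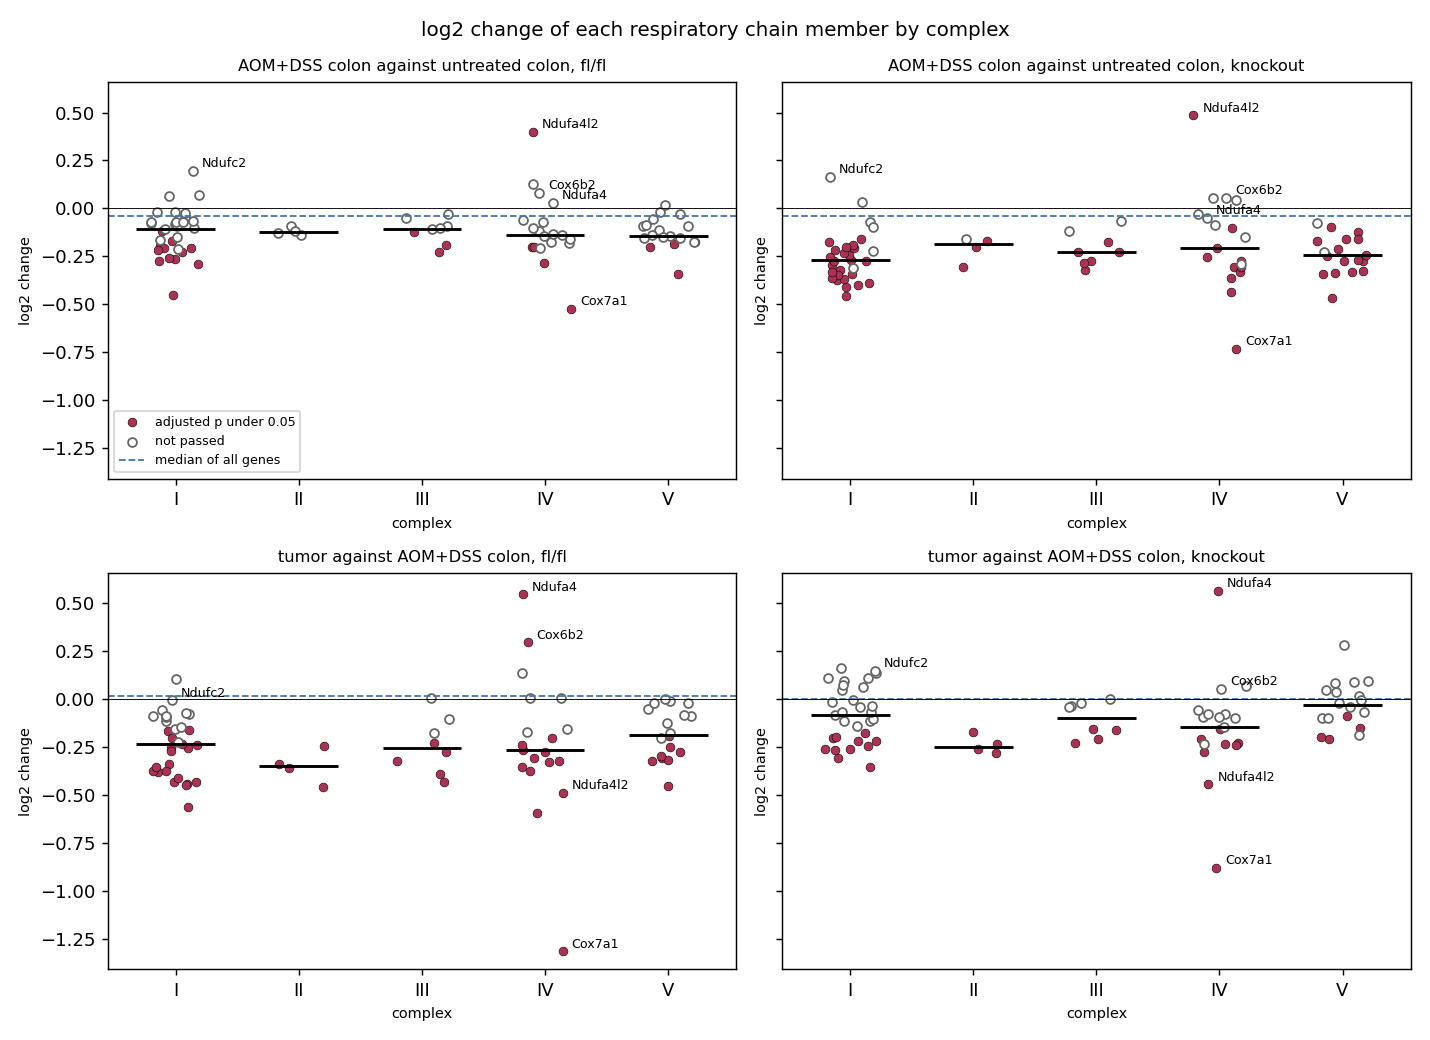
The log2 change of each of the 80 members (vertical axis) by complex (horizontal axis) in 4 comparisons, with filled points past an adjusted p of 0.05, a bar at each complex's median and a dashed line at the median of all genes. Most points lie below the dashed line in all 5 complexes, Cox7a1 is the lowest point in each panel, and Ndufa4 is the highest point in both tumor panels at 0.55 and 0.56.

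In complex I, the NADH dehydrogenase, 26 of 31 members were lower in fl/fl tumors than in untreated colon, and 24 were lower and 1 higher in knockout tumors, with medians of -0.34 and -0.36. After AOM+DSS 12 were lower in fl/fl and 25 in knockout, none was higher, and the medians were -0.11 and -0.27. The 3 functional modules of the complex moved by similar medians. In fl/fl tumors against untreated colon the median was -0.34 over 9 members of the NADH-oxidising module and -0.34 over 4 of the ubiquinone-reducing module. Over the remaining 18, all grouped here as the membrane arm, it was -0.35. No test of a difference between modules was run.

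Between tumors and colon after AOM+DSS 19 members of complex I were lower in fl/fl (median -0.23) and 11 in knockout (median -0.081), and none was higher. Ndufv3, an accessory subunit of the NADH-oxidising module, had the largest fall in complex I in fl/fl tumors. Its lowest, median and highest values were 8.55, 8.64 and 8.86 in untreated fl/fl colon, 8.34, 8.46 and 8.79 after AOM+DSS and 7.57, 7.98 and 8.19 in fl/fl tumors. In knockout mice they were, in the same order of groups, 8.49, 8.64 and 8.89, 8.09, 8.31 and 8.67 and 7.65, 7.84 and 8.40. All fl/fl tumors were below all fl/fl colon samples, treated or not, whereas knockout tumors overlapped the knockout colon after AOM+DSS. The change from untreated colon to tumor was -0.73 ± 0.083 in fl/fl and -0.69 ± 0.080 in knockout (adjusted p = 5.92e-11 and 1.02e-10).

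The core subunits that carry electrons did not all move at the same step. Ndufv1, which binds NADH and the flavin, changed after AOM+DSS by -0.26 ± 0.063 in fl/fl (adjusted p = 0.00211) and -0.37 ± 0.063 in knockout (adjusted p = 6.76e-06), and differed by -0.087 and -0.0019 between tumor and colon after AOM+DSS, which did not pass (adjusted p = 0.328 and 0.986). Ndufs1, the large iron-sulfur subunit beside it, had the other order, with 0.071 and 0.034 after AOM+DSS (adjusted p = 0.420 and 0.717, not passed) and changes in tumors of -0.41 ± 0.065 and -0.27 ± 0.063 against colon after AOM+DSS (adjusted p = 3.86e-07 and 3.23e-04). The difference between these 2 genes in the step at which they moved was not tested. Ndufs7, which holds the last iron-sulfur cluster before ubiquinone, passed in all 6 of the comparisons between conditions, and reached -0.44 ± 0.066 and -0.60 ± 0.064 in tumors against untreated colon (adjusted p = 6.56e-08 and 3.90e-12). Ndufs8, its iron-sulfur neighbour, was lower only in knockout colon after AOM+DSS among those 6 (-0.22 ± 0.075, adjusted p = 0.0200).

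The members of complex I with the largest falls after AOM+DSS were Ndufs5, Ndufa7, Ndufa1 and Ndufa13 in fl/fl colon and Ndufa7, Ndufa1, Ndufb10 and Ndufs7 in knockout colon. Ndufs5 had lowest, median and highest values of 5.78, 6.25 and 6.61 in untreated fl/fl colon and 5.59, 5.83 and 6.05 after AOM+DSS, ranges that overlapped, and changed by -0.45 ± 0.12 (adjusted p = 0.00538). In knockout colon it stood at -0.22 ± 0.12, not passed (adjusted p = 0.177), and between tumors and colon after AOM+DSS at 0.11 and 0.11, neither passed (adjusted p = 0.560 and 0.533). Ndufa7 changed after AOM+DSS by -0.29 ± 0.083 in fl/fl and -0.46 ± 0.083 in knockout (adjusted p = 0.00870 and 1.54e-05). Ndufa1, a membrane arm subunit, changed by -0.28 ± 0.071 and -0.41 ± 0.071 (adjusted p = 0.00303 and 6.42e-06). Ndufa13, also known as the cell death factor GRIM-19, changed by -0.26 ± 0.078 and -0.37 ± 0.078 (adjusted p = 0.0110 and 1.50e-04). Ndufa5, an accessory subunit of the ubiquinone-reducing module, had lowest, median and highest values of 7.50, 7.57 and 7.65 in untreated fl/fl colon and 6.73, 6.95 and 7.23 in fl/fl tumors. These ranges did not touch, and the change was -0.58 ± 0.059 (adjusted p = 1.49e-12).

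Membrane arm subunits carry no electrons and surround the proton pumps. Among them Ndufb9 ranged from 12.24 to 12.41 in untreated fl/fl colon, from 12.09 to 12.41 after AOM+DSS and from 11.67 to 11.98 in fl/fl tumors. Its tumor change against untreated colon was -0.50 ± 0.045 in fl/fl and -0.47 ± 0.043 in knockout (adjusted p = 1.84e-14 and 6.16e-14). Ndufb10, another membrane arm subunit, changed by -0.66 ± 0.071 in fl/fl tumors and by -0.64 ± 0.069 in knockout tumors (adjusted p = 7.82e-12 and 6.30e-12), and no tumor of either genotype overlapped the untreated colon of that genotype. Its smaller change after AOM+DSS in fl/fl colon (-0.21 ± 0.067, adjusted p = 0.0153) was lost with arrays shifted to 1 median (adjusted p = 0.0736). Ndufc2 was the complex I member against the trend, higher in knockout tumors than in untreated knockout colon by 0.31 ± 0.087 (adjusted p = 0.00215) and at 0.19 ± 0.090 in fl/fl, which did not pass (adjusted p = 0.0796). After AOM+DSS it stood at 0.20 and 0.16, also not passed (adjusted p = 0.0864 and 0.147), and these calls depend on whether the replicate number enters the fit.

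Complex II, the succinate dehydrogenase that also works in the citrate cycle, is the one complex made only of nuclear-encoded subunits, and it showed the step to tumor in every member. None passed after AOM+DSS in fl/fl colon, where the median was -0.12, and 3 of 4 were lower in knockout colon (median -0.18). All 4 were lower in tumors than in colon after AOM+DSS and than in untreated colon in both genotypes, with tumor medians against untreated colon of -0.46 in fl/fl and -0.43 in knockout.

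The flavoprotein Sdha had lowest, median and highest values of 11.33, 11.47 and 11.54 in untreated fl/fl colon, 11.24, 11.38 and 11.50 after AOM+DSS and 10.87, 11.01 and 11.20 in fl/fl tumors. Every fl/fl tumor was below every fl/fl colon sample, and the tumor change against untreated colon was -0.43 ± 0.051 (adjusted p = 2.35e-10). The iron-sulfur subunit Sdhb went from 9.59 ± 0.10 (SD, n = 10) in untreated to 9.09 ± 0.15 (n = 8) in tumors of fl/fl mice, and from 9.59 ± 0.17 (n = 10) to 9.04 ± 0.11 (n = 9) in knockout mice. The changes were -0.50 ± 0.070 and -0.54 ± 0.067 (adjusted p = 1.56e-08 and 6.92e-10). The membrane anchors Sdhc and Sdhd changed by -0.58 ± 0.078 and -0.38 ± 0.055 in fl/fl tumors (adjusted p = 6.69e-09 and 4.81e-08).

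In complex III, which passes electrons from ubiquinol to cytochrome c, 6 of 8 members were lower in fl/fl tumors than in untreated colon and 7 in knockout tumors. The member that passed in neither was Uqcrh-ps1, a pseudogene symbol among the dim genes (the dimmest 1/3 of all), with -0.023 and -0.087. After AOM+DSS 3 were lower in fl/fl and 6 in knockout, and between tumors and that colon 5 were lower in fl/fl and 4 in knockout. The Rieske iron-sulfur subunit Uqcrfs1, which hands electrons to cytochrome c1, had the largest fall in fl/fl tumors. It had lowest, median and highest values of 8.34, 8.48 and 8.66 in untreated fl/fl colon, 8.03, 8.32 and 8.56 after AOM+DSS and 7.71, 7.77 and 8.16 in tumors. The tumor values lay below all untreated values and overlapped the colon after AOM+DSS, with a change against untreated colon of -0.62 ± 0.066 in fl/fl and -0.43 ± 0.063 in knockout (adjusted p = 4.29e-12 and 5.06e-08). Its fall after AOM+DSS in fl/fl colon (-0.19 ± 0.062, adjusted p = 0.0190) and that between knockout tumors and knockout colon after AOM+DSS (-0.16 ± 0.063, adjusted p = 0.0419) were lost with arrays shifted to 1 median (adjusted p = 0.107 and 0.0838). Uqcrh, the hinge subunit beside cytochrome c1, had the largest fall after AOM+DSS, of -0.23 ± 0.075 in fl/fl and -0.32 ± 0.075 in knockout (adjusted p = 0.0210 and 4.92e-04), and was at -0.043 between knockout tumors and that colon, not passed (adjusted p = 0.705). The structural core subunits Uqcrc1 and Uqcrc2 changed by -0.49 ± 0.078 and -0.40 ± 0.048 in fl/fl tumors (adjusted p = 2.69e-07 and 2.47e-10).

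Complex IV, cytochrome c oxidase, had the widest range of changes among the complexes, from -1.84 to 0.58 in fl/fl tumors against untreated colon, where 12 of 19 members were lower and 2 higher. In knockout tumors 13 were lower and 1 higher. After AOM+DSS 4 were lower and 1 higher in fl/fl, and 10 were lower and 1 higher in knockout. Between tumors and that colon 12 were lower and 2 higher in fl/fl, and 8 were lower and 1 higher in knockout. Complex IV has several subunits with paired isoforms, one broadly expressed and one made mainly in a single tissue, and the pairs are described next.

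Cox4i1, the general isoform of subunit IV, fell at each step. In fl/fl, lowest, median and highest values were 10.52, 10.68 and 10.77 in untreated fl/fl colon, 10.05, 10.32 and 10.80 after AOM+DSS and 9.73, 10.11 and 10.20 in fl/fl tumors. Tumors of both genotypes lay below all untreated colon of their genotype and overlapped the colon after AOM+DSS. The tumor change against untreated colon was -0.61 ± 0.081 in fl/fl and -0.65 ± 0.079 in knockout (adjusted p = 4.28e-09 and 3.57e-10). Its lung isoform Cox4i2 passed only in knockout tumors against untreated colon among the 6 comparisons between conditions (-0.24 ± 0.071, adjusted p = 0.00350). Cox5b, a zinc-binding subunit with no such pair among the members, passed in all 6 and was -0.58 ± 0.069 in fl/fl tumors against untreated colon (adjusted p = 2.56e-10), though its second probe set had the opposite sign in fl/fl colon after AOM+DSS.

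Cox7a1, the heart and skeletal muscle isoform of subunit VIIa, had the largest fall of all members. Its lowest, median and highest values in fl/fl were 9.33, 9.52 and 9.81 in untreated colon, 8.62, 9.03 and 9.47 after AOM+DSS and 7.12, 7.70 and 8.06 in tumors. In knockout they were, in the same order of groups, 9.03, 9.22 and 9.65, 8.18, 8.59 and 8.93 and 7.35, 7.51 and 8.52. In fl/fl the tumors lay below all colon samples, and in knockout they lay below all untreated colon and overlapped the colon after AOM+DSS. The tumor change against untreated colon was -1.84 ± 0.13 in fl/fl, which is 27.9% of the untreated level, and -1.61 ± 0.12 in knockout, which is 32.7% (adjusted p = 1.79e-18 and 7.26e-17). Cox7a2, the isoform made in most tissues, changed by -0.51 ± 0.084 and -0.48 ± 0.081 (adjusted p = 6.08e-07 and 1.05e-06). The related Cox7a2l changed by -0.40 ± 0.064 and -0.51 ± 0.062 (adjusted p = 3.50e-07 and 2.97e-10).

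Smooth muscle markers fell in the same tumors. All 8 listed smooth muscle genes were lower in tumors than in colon after AOM+DSS, with medians of -1.76 in fl/fl and -1.70 in knockout, and their mean level ranged from 11.54 to 11.93 in untreated fl/fl colon and from 9.54 to 10.59 in fl/fl tumors. None of the 8 passed after AOM+DSS in either genotype (medians -0.0009 and -0.12), the step at which Cox7a1 changed by -0.52 and -0.73. The skeletal muscle list had 5 of 8 genes lower in fl/fl tumors against colon after AOM+DSS and 3 in knockout tumors, at mean levels of 5.78 to 7.28 and 5.66 to 6.50 in colon after AOM+DSS and 5.54 to 5.81 and 5.46 to 5.70 in tumors. The part of either muscle in the Cox7a1 values was not tested.

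Ndufa4 moved the other way in tumors. Its lowest, median and highest values in fl/fl were 10.66, 10.78 and 11.02 in untreated colon, 10.56, 10.86 and 10.96 after AOM+DSS and 11.20, 11.39 and 11.49 in tumors. In knockout they were, in that order, 10.66, 10.88 and 11.02, 10.69, 10.83 and 10.92 and 11.24, 11.35 and 11.54. Every tumor was above every colon sample of its genotype, while colon after AOM+DSS overlapped untreated colon. The change from colon after AOM+DSS to tumor was 0.55 ± 0.053 in fl/fl, or 146% of the level in that colon, and 0.56 ± 0.051 in knockout, or 148% (adjusted p = 3.76e-13 and 4.03e-14). After AOM+DSS the differences from untreated colon were 0.030 ± 0.050 and -0.047 ± 0.050, neither past the threshold (adjusted p = 0.693 and 0.512).

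Its paralogue Ndufa4l2, a gene known to be induced by hypoxia, had another course. Its lowest, median and highest values in fl/fl were 5.83, 6.17 and 7.21 in untreated colon, 6.18, 6.61 and 7.71 after AOM+DSS and 6.02, 6.22 and 6.50 in tumors, so the ranges overlapped throughout. It was higher after AOM+DSS, by 0.40 ± 0.15 in fl/fl and 0.49 ± 0.15 in knockout (adjusted p = 0.0478 and 0.0104), and lower in tumors than in that colon, with differences of -0.49 ± 0.16 and -0.44 ± 0.16 (adjusted p = 0.0110 and 0.0163). The fl/fl rise was lost when only the compared groups were fitted (adjusted p = 0.134). Tumors and untreated colon differed by -0.087 ± 0.16 and 0.041 ± 0.16, which did not pass (adjusted p = 0.701 and 0.860).

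**Figure D3:**
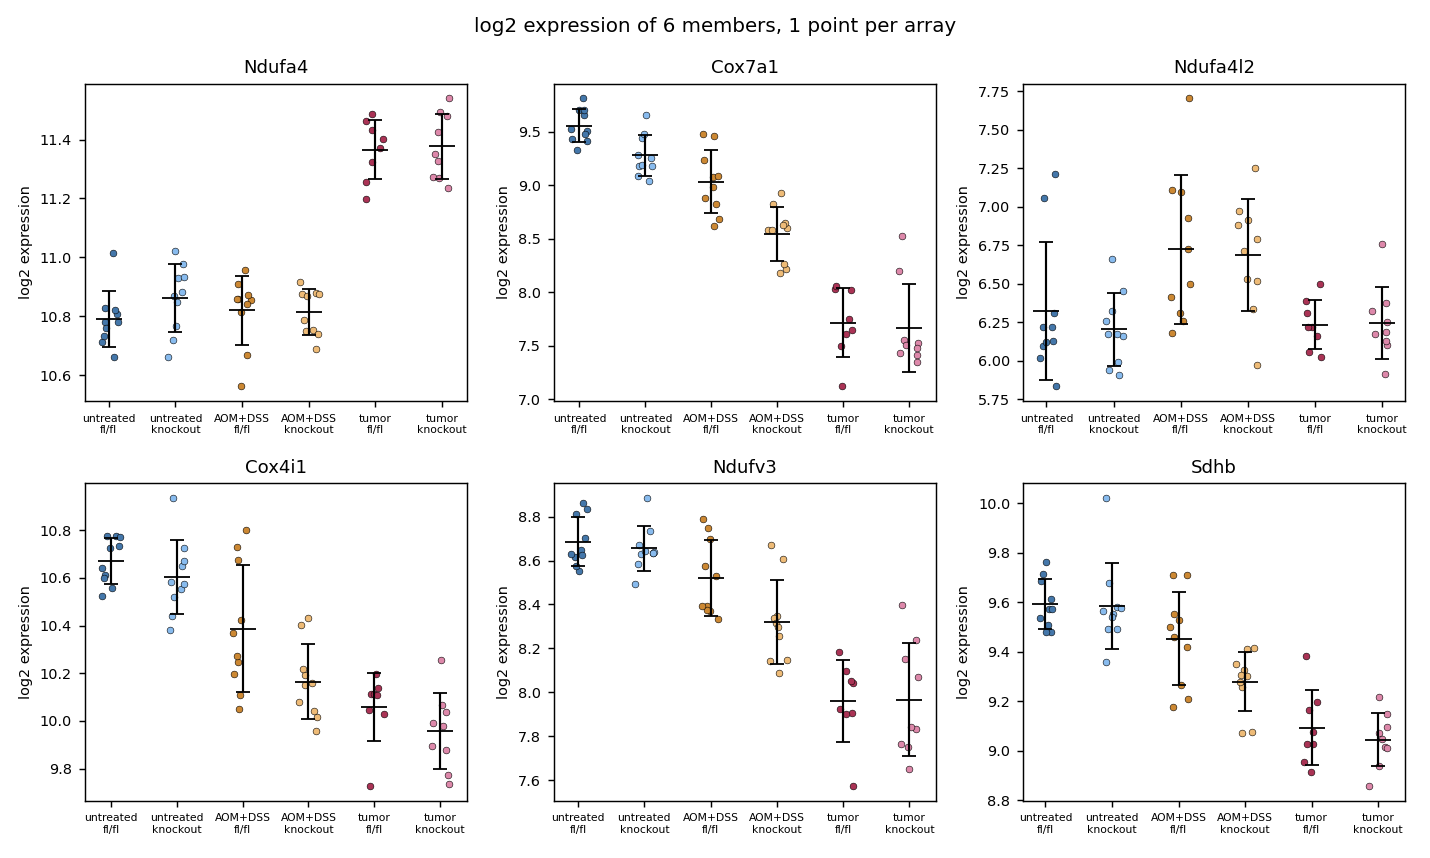
log2 expression (vertical axes, each with its own range) of Ndufa4, Cox7a1, Ndufa4l2, Cox4i1, Ndufv3 and Sdhb in the 6 groups (horizontal axes), with 1 point per array and bars for the mean and SD. Ndufa4 lies at 11.20 to 11.49 in fl/fl tumors and 11.24 to 11.54 in knockout tumors, above all 40 colon samples, Cox7a1, Cox4i1, Ndufv3 and Sdhb step down towards the tumors, and Ndufa4l2 is highest on average in colon after AOM+DSS.

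Cox7b, a small subunit of complex IV, had the second largest fall of the complex in fl/fl tumors. It had lowest, median and highest values of 9.73, 10.33 and 10.46 in untreated fl/fl colon, 9.63, 10.15 and 10.54 after AOM+DSS and 8.99, 9.43 and 10.18 in fl/fl tumors. The tumors spread widely and overlapped both kinds of colon. The change from colon after AOM+DSS to tumor was -0.59 ± 0.13 in fl/fl (adjusted p = 7.62e-05), and in knockout it stood at -0.23 ± 0.12, not passed (adjusted p = 0.120). Cox5a and Cox7c, which have no second isoform among the members, were at -0.45 ± 0.078 and -0.046 ± 0.080 in fl/fl tumors against untreated colon, of which Cox7c did not pass (adjusted p = 1.85e-06 and 0.679).

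The other tissue isoforms of complex IV were mostly dim or moved little. Cox6b2, the testis isoform of a subunit that faces cytochrome c, was higher in fl/fl tumors than in colon after AOM+DSS by 0.30 ± 0.11 (adjusted p = 0.0236), a call lost with a further quantile normalization (adjusted p = 0.0566), and than in untreated colon by 0.38 ± 0.11 (adjusted p = 0.00308). In knockout tumors it was at 0.055 and 0.11, neither passed (adjusted p = 0.731 and 0.429), and its general partner Cox6b1 was lower in both genotypes, with changes of -0.46 ± 0.093 and -0.33 ± 0.090 against untreated colon (adjusted p = 3.56e-05 and 0.00161). The heart and muscle isoform Cox8b changed by -0.54 ± 0.10 in fl/fl tumors and -0.41 ± 0.099 in knockout tumors against untreated colon (adjusted p = 1.18e-05 and 4.36e-04), and the general Cox8a by -0.34 ± 0.053 and -0.36 ± 0.051 (adjusted p = 2.22e-07 and 2.75e-08). The muscle isoform Cox6a2 changed by -0.30 ± 0.095 in fl/fl tumors against untreated colon (adjusted p = 0.00757) and its general partner Cox6a1 by -0.33 ± 0.042 (adjusted p = 2.33e-09). The testis isoforms Cox7b2 and Cox8c passed in none of the 6 comparisons between conditions. Both, with Cox8b, Atp5c1-ps and Uqcrh-ps1, lay among the dim genes, so changes of these 5 members are poorly measured.

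In complex V, the ATP synthase, 15 of 18 members were lower in fl/fl tumors and 15 in knockout tumors than in untreated colon, with medians of -0.28 and -0.25. After AOM+DSS 4 were lower in fl/fl (median -0.14) and 16 in knockout (median -0.24). Between knockout tumors and knockout colon after AOM+DSS 4 members were lower and the median was -0.030. In fl/fl tumors against that colon 8 were lower, with a median of -0.18.

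In the head, the alpha subunit Atp5a1 and the catalytic beta subunit Atp5b changed by -0.22 ± 0.037 and -0.11 ± 0.036 in fl/fl tumors against untreated colon (adjusted p = 7.46e-07 and 0.0115). Atp5d, the delta subunit of the rotating stalk, had lowest, median and highest values of 10.10, 10.46 and 10.88 in untreated fl/fl colon and 9.37, 9.85 and 10.27 in fl/fl tumors. Those ranges overlapped, and the change was -0.60 ± 0.13 in fl/fl and -0.65 ± 0.12 in knockout (adjusted p = 5.85e-05 and 7.37e-06). The gamma subunit Atp5c1 and the epsilon subunit Atp5e, which sit beside it, changed by -0.36 ± 0.058 and -0.34 ± 0.11 in fl/fl tumors (adjusted p = 3.38e-07 and 0.00920).

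Atp5o, the subunit that ties the head to the outer stalk, had the largest fall of complex V after AOM+DSS in fl/fl colon. Atp5o had lowest, median and highest values of 7.72, 8.07 and 8.30 in untreated fl/fl colon, 7.28, 7.65 and 8.10 after AOM+DSS and 7.22, 7.53 and 7.79 in fl/fl tumors. All 3 ranges overlapped. The change was -0.34 ± 0.080 after AOM+DSS and -0.52 ± 0.085 in tumors against untreated colon (adjusted p = 0.00120 and 6.21e-07). The stalk subunits Atp5h and Atp5pb changed by -0.40 ± 0.053 and -0.28 ± 0.064 in fl/fl tumors, and Atp5k and Atp5l, which help to join synthases into dimers, by -0.45 ± 0.063 and -0.28 ± 0.068 (adjusted p = 3.58e-09, 2.29e-04, 1.59e-08 and 5.28e-04).

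The 3 genes Atp5g1, Atp5g2 and Atp5g3 encode the same mature subunit of the proton-carrying ring and differed in course. Atp5g3 passed at every step and was -0.49 ± 0.052 in fl/fl and -0.46 ± 0.050 in knockout tumors against untreated colon (adjusted p = 5.90e-12 and 1.93e-11). Atp5g2 was lower after AOM+DSS by -0.20 ± 0.054 and -0.28 ± 0.054 (adjusted p = 0.00504 and 5.14e-05) and did not pass between tumor and that colon (-0.021 and 0.085, adjusted p = 0.811 and 0.230). Its second probe set had the opposite sign between fl/fl tumors and that colon. Atp5g1 passed only after AOM+DSS in knockout colon (-0.34 ± 0.11, adjusted p = 0.0156). The differences between these 3 genes were not tested.

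Because many members moved together, the RefSeq promoter windows of the members (assembly GRCm38.p6, 250 bases before to 50 after the gene start) were searched for the letters of 4 motifs that are known from promoters of mitochondrial genes. The search covered both strands for the NRF1 core GCGCATGCG, the ETS core CCGGAAG bound by GABPA, the YY1 core AAGATGGCG and the AAGGTCA element of estrogen-related receptors, and 64 of 80 members had 69 windows. The stretches below are the 170 bases before the start, with matches in capitals on either strand. They are given for 1 member of each complex that fell in tumors, all from the 28 members with a match. Cox7a1, which fell most, and Ndufa4, which rose, are given from the 36 members whose full windows held no match. The examples were picked by hand and do not show that a match goes with a fall.
Ndufa8 (complex I, chr2:36049339-36049508, minus strand): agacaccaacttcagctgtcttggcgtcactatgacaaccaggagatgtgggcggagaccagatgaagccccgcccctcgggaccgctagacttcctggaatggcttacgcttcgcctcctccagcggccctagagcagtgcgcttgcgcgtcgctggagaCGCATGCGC
Sdhd (complex II, chr9:50603850-50604019, minus strand): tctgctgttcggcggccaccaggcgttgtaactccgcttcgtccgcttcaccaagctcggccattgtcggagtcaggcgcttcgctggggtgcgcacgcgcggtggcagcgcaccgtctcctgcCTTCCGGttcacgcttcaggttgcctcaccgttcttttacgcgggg
Uqcrh (complex III, chr4:116075071-116075240, minus strand): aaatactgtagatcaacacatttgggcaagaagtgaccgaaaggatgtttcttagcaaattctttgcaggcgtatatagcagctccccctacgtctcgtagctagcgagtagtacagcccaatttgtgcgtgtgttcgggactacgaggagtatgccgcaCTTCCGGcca
Cox6a1 (complex IV, chr5:115348959-115349128, minus strand): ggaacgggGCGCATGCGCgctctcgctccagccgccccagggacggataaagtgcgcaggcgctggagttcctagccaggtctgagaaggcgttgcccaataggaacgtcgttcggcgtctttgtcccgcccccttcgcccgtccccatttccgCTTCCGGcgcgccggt
Atp5k (complex V, chr5:108434400-108434569, minus strand): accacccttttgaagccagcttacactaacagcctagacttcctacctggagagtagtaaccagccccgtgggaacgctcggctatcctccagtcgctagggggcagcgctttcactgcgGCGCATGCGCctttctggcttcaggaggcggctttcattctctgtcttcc
Cox7a1 (complex IV, chr7:30184001-30184170, plus strand): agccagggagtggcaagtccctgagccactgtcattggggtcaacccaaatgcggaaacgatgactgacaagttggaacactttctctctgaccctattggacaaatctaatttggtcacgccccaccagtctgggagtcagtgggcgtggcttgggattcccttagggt
Ndufa4 (complex IV, chr6:11907451-11907620, minus strand): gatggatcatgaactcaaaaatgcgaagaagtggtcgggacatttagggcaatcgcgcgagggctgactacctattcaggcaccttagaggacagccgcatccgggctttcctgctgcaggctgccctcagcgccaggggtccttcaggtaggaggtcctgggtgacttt

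The NRF1 core was found in 8 of 69 member windows (11.6%) and in 1.75% of all 32851 RefSeq windows. Those windows were not limited to the measured genes or matched to the members in base content. The shares are therefore not shown to be particular to this family. The ETS core was found in 17 member windows (24.6%) against 8.86%, the YY1 core in 6 (8.7%) against 1.4%, and the receptor element in 6 (8.7%) against 4.72%. Of the windows shown, those of Ndufa8, Cox6a1 and Atp5k hold the NRF1 core, and in the latter pair its matches on the 2 strands overlap in 1 run. The 28 members with any match had medians of -0.34 in fl/fl tumors against untreated colon, -0.10 in fl/fl colon after AOM+DSS and -0.24 in knockout colon after AOM+DSS. The 36 without a match had -0.39, -0.17 and -0.28 in the same order, and these differences were not tested. Among complexes, 11 of 30 windows of complex I, 2 of 3 of complex II, 3 of 4 of complex III, 3 of 14 of complex IV and 9 of 18 of complex V held a match. A match is a run of letters and was not tested for binding.

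Of the 14 genes listed as regulators of mitochondrial biogenesis, 4 were lower and 4 higher in fl/fl tumors than in untreated colon, and 4 lower and 5 higher in knockout tumors. The members with the smallest adjusted p were the coactivator Ppargc1b and the estrogen-related receptors Esrrg and Esrra, which were lower, and the coactivator Pprc1, which was higher. Ppargc1b went from 8.27 ± 0.19 (SD, n = 10) to 6.58 ± 0.25 (n = 8) in fl/fl, a change of -1.70 ± 0.12 (adjusted p = 5.75e-18), Esrrg changed by -1.12 ± 0.087 and Esrra by -0.54 ± 0.068 (adjusted p = 1.14e-16 and 1.11e-09). Pprc1 was higher by 0.62 ± 0.10 (adjusted p = 4.42e-07). Of the other factors whose motifs were searched, Nrf1 and Yy1 were higher in fl/fl tumors by 0.16 ± 0.051 and 0.14 ± 0.049 (adjusted p = 0.00896 and 0.0173), and Gabpa was at 0.12 ± 0.070, which did not pass (adjusted p = 0.183).

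The subunits encoded by mitochondrial DNA showed no change past the threshold. Of 13 such genes 10 were measured, and none passed in any of the 6 comparisons between conditions, with medians from -0.054 to 0.055. In fl/fl tumors against untreated colon COX1, a catalytic subunit of complex IV, differed by -0.0083 ± 0.052, CYTB of complex III by -0.0005 ± 0.049 and ND1 of complex I by -0.022 ± 0.045 (adjusted p = 0.917, 0.995 and 0.736). Their mean level was 12.88 to 13.23 in untreated fl/fl colon, near the highest value of the whole table, 13.96.

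The partners of the chain were split. The citrate cycle list, which feeds electrons to complexes I and II, had 12 of 15 genes lower and none higher in fl/fl tumors and 11 lower and none higher in knockout tumors against untreated colon, with medians of -0.33 and -0.25. Among them were Suclg1 at -0.89 ± 0.080 and citrate synthase (Cs) at -0.68 ± 0.055 in fl/fl (adjusted p = 2.09e-14 and 6.69e-16). Of 42 assembly factors, 21 were lower and 4 higher in fl/fl tumors, with Cox15, which makes heme A for complex IV, at -0.76 ± 0.088 and Sdhaf1, which serves the iron-sulfur subunit of complex II, at 0.64 ± 0.072 (adjusted p = 9.02e-11 and 4.81e-11). In knockout tumors 20 assembly factors were lower and 6 higher. Sdhaf1 was higher in knockout tumors too, by 0.77 ± 0.070 (adjusted p = 3.23e-14), while all 4 subunits of complex II fell in the tumors of both genotypes.

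Of 8 measured genes for electron carriers and for dehydrogenases that feed ubiquinone, 4 were lower and 2 higher in fl/fl tumors, and the same numbers in knockout tumors. The sulfide quinone oxidoreductase Sqor was lower, at -0.67 ± 0.069, while proline dehydrogenase (Prodh) and the glycerol-3-phosphate dehydrogenase Gpd2 were higher by 0.92 ± 0.10 and 0.62 ± 0.069 (adjusted p = 1.86e-12, 4.67e-11 and 2.50e-11). Of 11 markers of mitochondrial mass and import, 4 were lower and 4 higher in fl/fl tumors, with the outer membrane channel Vdac1 at -0.33 ± 0.039 and the chaperone Hspd1 at 0.45 ± 0.086 (adjusted p = 1.06e-10 and 1.46e-05). The mass list had a median of -0.098 in fl/fl tumors, where the respiratory chain members had -0.34. In knockout its mean level was 10.37 ± 0.052 (SD, n = 10) in untreated colon and 10.39 ± 0.056 (n = 9) in tumors. The part of mitochondrial mass in the respiratory chain differences was not tested.

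Levels of cell type markers in the bulk tissue also differed between the conditions. All 8 measured markers of mature colonocytes were lower in tumors than in untreated colon in both genotypes (medians -2.81 and -2.88), with mean levels of 12.10 to 12.32 in untreated fl/fl colon and 8.56 to 10.89 in fl/fl tumors. The general epithelial list had 3 of 8 lower and 1 higher in fl/fl tumors (median -0.12), at mean levels of 11.58 to 11.73 in untreated fl/fl colon and 11.48 to 11.72 in fl/fl tumors, and the 5 measured proliferation genes and the 5 genes of Wnt-active tumor epithelium were all higher in both genotypes. After AOM+DSS all 6 fibroblast and all 6 macrophage markers were higher in both genotypes, with medians of 0.65 and 0.83 in fl/fl and 0.94 and 0.81 in knockout, as were all 4 B cell and all 5 neutrophil markers. The squamous list, with 4 of 5 genes higher in both genotypes (medians 2.53 and 2.28), spread widely, with mean levels of 5.24 to 9.27 in untreated fl/fl colon and 5.22 to 10.19 after AOM+DSS, and of 5.23 to 8.50 and 5.18 to 10.34 in knockout. Of 5 measured T cell markers 4 were higher in fl/fl and 5 in knockout (medians 1.09 and 1.34). The share of these cells in the respiratory chain differences was not tested.

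The genotype comparisons ask whether loss of epithelial Insr changed the chain. In untreated colon no member passed (all genes: 0.00451%), and 3 of 80 members had an unadjusted p under 0.05 (3.75%, against 5.02% of all genes). In tumors no member passed either (all genes: 0.00902%), and 1 had an unadjusted p under 0.05 (1.25%, against 4.46%), with a member median of 0.0063. These counts are no higher than those over all genes.

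In colon after AOM+DSS 2 members were lower in the knockout than in fl/fl (2.5%, against 0.122% of all genes), none was higher (0.419% of all genes), and 74 of 80 differences were negative, with a median of -0.13. At an unadjusted p under 0.05 there were 42 members (52.5%, against 13.1% of all genes). The first of the 2 was Ndufa1, a small membrane arm subunit of complex I, with lowest, median and highest values of 9.16, 9.50 and 9.82 in fl/fl and 9.01, 9.18 and 9.49 in knockout. The ranges overlapped, and the difference was -0.32 ± 0.071 (adjusted p = 0.0303). The second was Cox7a1, with 8.62 to 9.47 in fl/fl and 8.18 to 8.93 in knockout, which overlapped too, and a difference of -0.49 ± 0.12 (adjusted p = 0.0448). No member passed in a fit on these 2 groups alone, 1 with arrays shifted to 1 median, 4 with dim genes left out and 5 with array weights. In the same comparison the B cell and fibroblast lists had medians of 0.75 and 0.32 and the colonocyte list -0.23, none with a member that passed.

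By complex, the medians of the genotype difference after AOM+DSS were -0.16 for I, -0.12 for II, -0.14 for III, -0.11 for IV and -0.13 for V. All 18 members of complex V and all 8 of complex III had a negative difference, counting the dim pseudogene symbols Atp5c1-ps and Uqcrh-ps1. The group means behind this were 9.47 ± 0.11 (SD, n = 10) in fl/fl and 9.33 ± 0.092 (n = 10) in knockout for complex V, and the ranges overlapped, at 9.33 to 9.61 and 9.20 to 9.47.

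The test of whether the response itself differed by genotype called no member. For the change from untreated colon to AOM+DSS no gene of the table passed (0%), and 7 members had an unadjusted p under 0.05 (8.75%, against 6.09% of all genes), with a member median of -0.11. For the change from that colon to tumor no gene passed (0%), and 13 members had an unadjusted p under 0.05 (16.2%, against 6.63%), with a median of 0.14. So the larger count of fallen members in knockout colon after AOM+DSS, and the smaller one in knockout tumors against that colon, were not shown to differ between genotypes for any single member. Uqcrfs1 had the lowest unadjusted p among them, with a difference of 0.28 ± 0.091 between the genotypes in the change to tumor (adjusted p = 0.522).

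**Figure D4:**
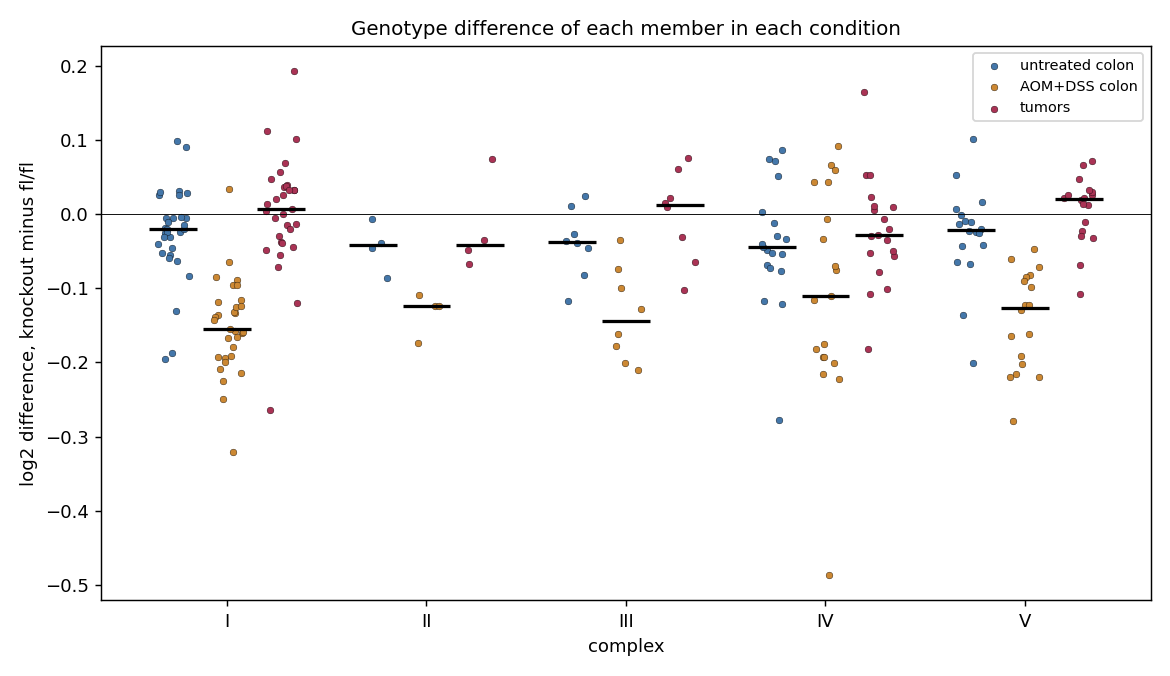
Knockout minus fl/fl difference of each member in log2 units (vertical axis) by complex (horizontal axis) in untreated colon, colon after AOM+DSS and tumors, with bars at the medians. The points of colon after AOM+DSS lie mostly below 0 in all 5 complexes, with a median of -0.13 over the 80 members, and the medians of untreated colon and tumors are -0.027 and 0.0063.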

How the data were processed

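Total RNA (250 ng) of each sample was hybridised to an Affymetrix whole-transcript array. The deposited values are log2 expression after RMA, per the submitters' processing notes, whose version is not given in the sources used here. RMA sets all arrays to a common distribution, so every value is relative within its array. The annotation of the platform gave 23521 of 41345 probe sets a single gene symbol, 1814 several and the rest none here, and the brightest probe set stood for each of 22180 genes. The members and lists were chosen with earlier results of these data known.

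Groups were compared with limma 3.58.1 in R 4.3.3, with 6 group means over 57 arrays (51 residual degrees of freedom), empirical Bayes moderation and Benjamini-Hochberg adjustment over all genes, at 0.05. There were 6 comparisons between conditions, 3 between genotypes and 2 of the genotype difference in a response. The script was tested on simulated data. Labels call the arrays biological replicates, and p-values measure the spread between them. Lists are described by counts and medians, without a test, beside all genes. Members were named when they were among the 4 largest rises or falls of a complex in a comparison, went against their complex, or were core subunits, tissue isoforms or ring subunits, and from other pathway lists up to 4 genes with the smallest adjusted p were named, plus the factors whose motifs were searched. Of 9 members with 2 probe sets, 7 to 9 had the same sign in both, depending on the comparison. Another 9 symbols of the family (among them Cox6c, Ndufs6 and Uqcr10) stood only on probe sets with several symbols and were not used. Alternatives were 2 other scalings, no dim genes, the mean of probe sets, the compared groups alone, array weights, an intensity trend with robust moderation, the replicate number as a block and, chosen after seeing the data, leaving out untreated knockout replicate 2, the array with the lowest correlation with its group.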

Additional observations from a re-analysis of the deposited data

Results flagged for a closer look

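Of 108 groups of values searched (means of the complexes and levels of the members plotted or named as main examples), 5 held a sample set far apart from the rest of its group, and chance alone sets about 1 in 20 groups apart in this way. The mean of complex V was 9.49 in knockout tumor replicate 2, with the next tumor at 9.34. Ndufa4 was 11.02 in untreated fl/fl colon replicate 10, with the next at 10.83. Cox4i1 was 9.73 in fl/fl tumor replicate 4, with the next at 10.03. Ndufv3 was 7.57 in fl/fl tumor replicate 3, with the next at 7.90. Sdhb was 10.02 in untreated knockout colon replicate 2, the array with the lowest correlation with its group, with the next at 9.68.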

How the results depend on the processing

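The counts of members past the threshold in the 11 comparisons stayed within 1.5 times the reported count in 94 of 99 recomputations. Those 94 include every recomputation of the genotype comparisons in untreated colon and in tumors and of both response tests, where no member passed. The other 5 were the 12 members (2 higher, 10 lower) of fl/fl colon after AOM+DSS with arrays shifted to 1 median, in place of 24, and the genotype comparison after AOM+DSS, where 2 members became 1 with arrays shifted to 1 median, 4 with dim genes left out, 0 in a fit on the compared groups alone and 5 with array weights. The cause was not tested. Deviations of same-numbered samples from their group means correlated at -0.32 to 0.33 between 2 groups. Samples with different numbers were not compared in this way, so these values cannot decide whether the numbers pair the samples. The fit without the numbers is the reported one. With the replicate block 26 members passed in fl/fl and 63 in knockout colon after AOM+DSS, 52 and 34 between tumors and that colon, and 3 in the genotype comparison. Ndufc2 was higher after AOM+DSS than in untreated colon in 9 of 10 same-numbered fl/fl pairs and 10 of 10 knockout pairs. It was higher in tumors than in untreated colon in 8 of 8 and 9 of 9. Any difference between groups raises such counts, so they do not show that Ndufc2 follows the replicate number. With the replicate block Ndufc2 passed as higher in 4 comparisons in which it had not passed. Among them were fl/fl (adjusted p = 0.00191) and knockout colon after AOM+DSS (0.00616) and fl/fl tumors against untreated colon (6.49e-05). Without untreated knockout replicate 2, 54 members passed in knockout colon after AOM+DSS. For 12 members in 6 comparisons, 633 recomputed calls kept their side of the threshold, 8 gained it and 7 lost it. None that passed in either fit changed direction, and changes of sign among calls that passed in neither were not counted. The losses were Ndufa4l2 in fl/fl colon after AOM+DSS (adjusted p = 0.134 with the compared groups alone and 0.0554 with the replicate block), Uqcrfs1 between knockout tumors and knockout colon after AOM+DSS (0.0723 with the compared groups alone and 0.0838 with arrays shifted), Uqcrfs1 and Ndufb10 in fl/fl colon after AOM+DSS with arrays shifted (0.107 and 0.0736), and Cox6b2 between fl/fl tumors and colon after AOM+DSS with a further quantile normalization (0.0566). The number of arrays limits the precision, and the 5 dim members had little signal.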
